A study of Mus musculus with 17 samples.

Results

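The Rab GTPases are small membrane-bound switch proteins that give each step of vesicle traffic its address. Bound to GTP, a Rab protein sits on its membrane and recruits effectors such as tethers and motor adaptors. Exchange factors load it with GTP, GTPase activators return it to the GDP form, and a GDP dissociation inhibitor then lifts it off the membrane through its prenyl anchor. In the brain they are best known for synaptic vesicle release, endocytosis in neurons and glia, phagosome maturation in microglia and the delivery of membrane to growing processes.

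Members were all genes whose symbol is Rab followed by a number and at most a letter and a further digit, which gave 57 of the 22462 genes in the files. They were divided by the best-known compartment of the protein into 8 genes of regulated secretion, 7 of the early endosome, 13 of recycling and delivery to the plasma membrane, 10 of the late endosome, lysosome and phagosome, 14 of the endoplasmic reticulum and Golgi, and 5 of the cilium and other roles. The files use the older symbols Rab1, Rab6 and Rab7l1 for the genes now called Rab1a, Rab6a and Rab29. The sequences of the Rab6 and Rab34 isoforms that the cell types used differently are given beside those isoforms.

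Polyadenylated RNA of mouse cerebral cortex was sequenced in 17 libraries. Whole cortex had 3, and 2 each came from endothelial cells, microglia, neurons, astrocytes and 3 oligodendrocyte stages, namely precursors, newly formed and myelinating cells. All samples carry the strain label FVN/Swiss, and the labels give no treatment, genotype, age, sort marker or number of animals, so whether replicates are separate animals is not known and p-values measure the spread between these samples. Levels are FPKM, a read density per transcript length and library size as deposited by the authors, in which values under 0.1 are listed at 0.1. Depth in reads is unknown, and counting intervals could not be computed.

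Each of the 7 cell-type marker lists was highest in its own type. Outside the oligodendrocyte lineage, marker sums of another type were largest in the precursor libraries, at up to 13.8% of their own level for the astrocyte markers. Markers of myelinating cells reached 32.5% to 46.7% in the newly formed oligodendrocytes. Precursor libraries also held fibroblast marker sums of 44.8 to 73.2 FPKM, against at most 5.18 FPKM in the other purified types. Mural cell marker sums were 217 to 253 FPKM in endothelial libraries and at most 37.8 FPKM in the other purified types. Sums for neutrophils and platelets were 122 to 123 FPKM in microglia and at most 8.73 FPKM in the others. Erythroid sums were 169 to 2082 FPKM in precursors, 639 to 782 in endothelial cells and at most 330 in the others. The part of such RNA in the Rab levels was not tested.

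The Rab genes together made up 0.608% to 0.683% of all FPKM in the neuron libraries and 0.273% to 0.290% in microglia, the highest and the lowest of the purified types. The other types lay between 0.331% and 0.546%. These shares divide by the FPKM sum of a library, which was highest in microglia. The Rab sum itself was highest in newly formed oligodendrocytes, at 1436 to 1462 FPKM, followed by neurons at 1327 to 1405. It was lowest in astrocytes, at 832 to 885 FPKM, and stood at 1066 to 1068 FPKM in microglia. At least 1 FPKM was reached by 38 to 40 members in astrocytes, microglia and endothelial cells, by 47 and 49 in precursors and by 50 in each whole cortex library. The most abundant Rab gene was not the same in all types. It was Rab3a in both neuron libraries, Rab5c in both microglia and both endothelial libraries, Rab31 in the precursors and the myelinating cells, and Rab6b in whole cortex. Replicates disagreed in astrocytes (Rab34 and Rab10) and in newly formed oligodendrocytes (Rab10 and Rab5c). Genes of regulated secretion held 14.99% and 15.08% of the Rab FPKM in the neuron libraries and at most 6.07% in any other purified library. Most of the neuronal share was Rab3a alone, at 170.1 and 165 FPKM of Rab sums of 1405 and 1327 FPKM. Rab27a, Rab27b and Rab37 of the same role had their highest mean outside neurons. In microglia the late endosome, lysosome and phagosome group held 16.9% to 17.3%, next to 14.2% to 18.2% in astrocytes and at most 7.43% elsewhere in the purified types. In astrocyte replicate 1, at 18.2%, Rab34 alone stood at 76.5 FPKM of a Rab sum of 832 FPKM.

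**Figure D1:**
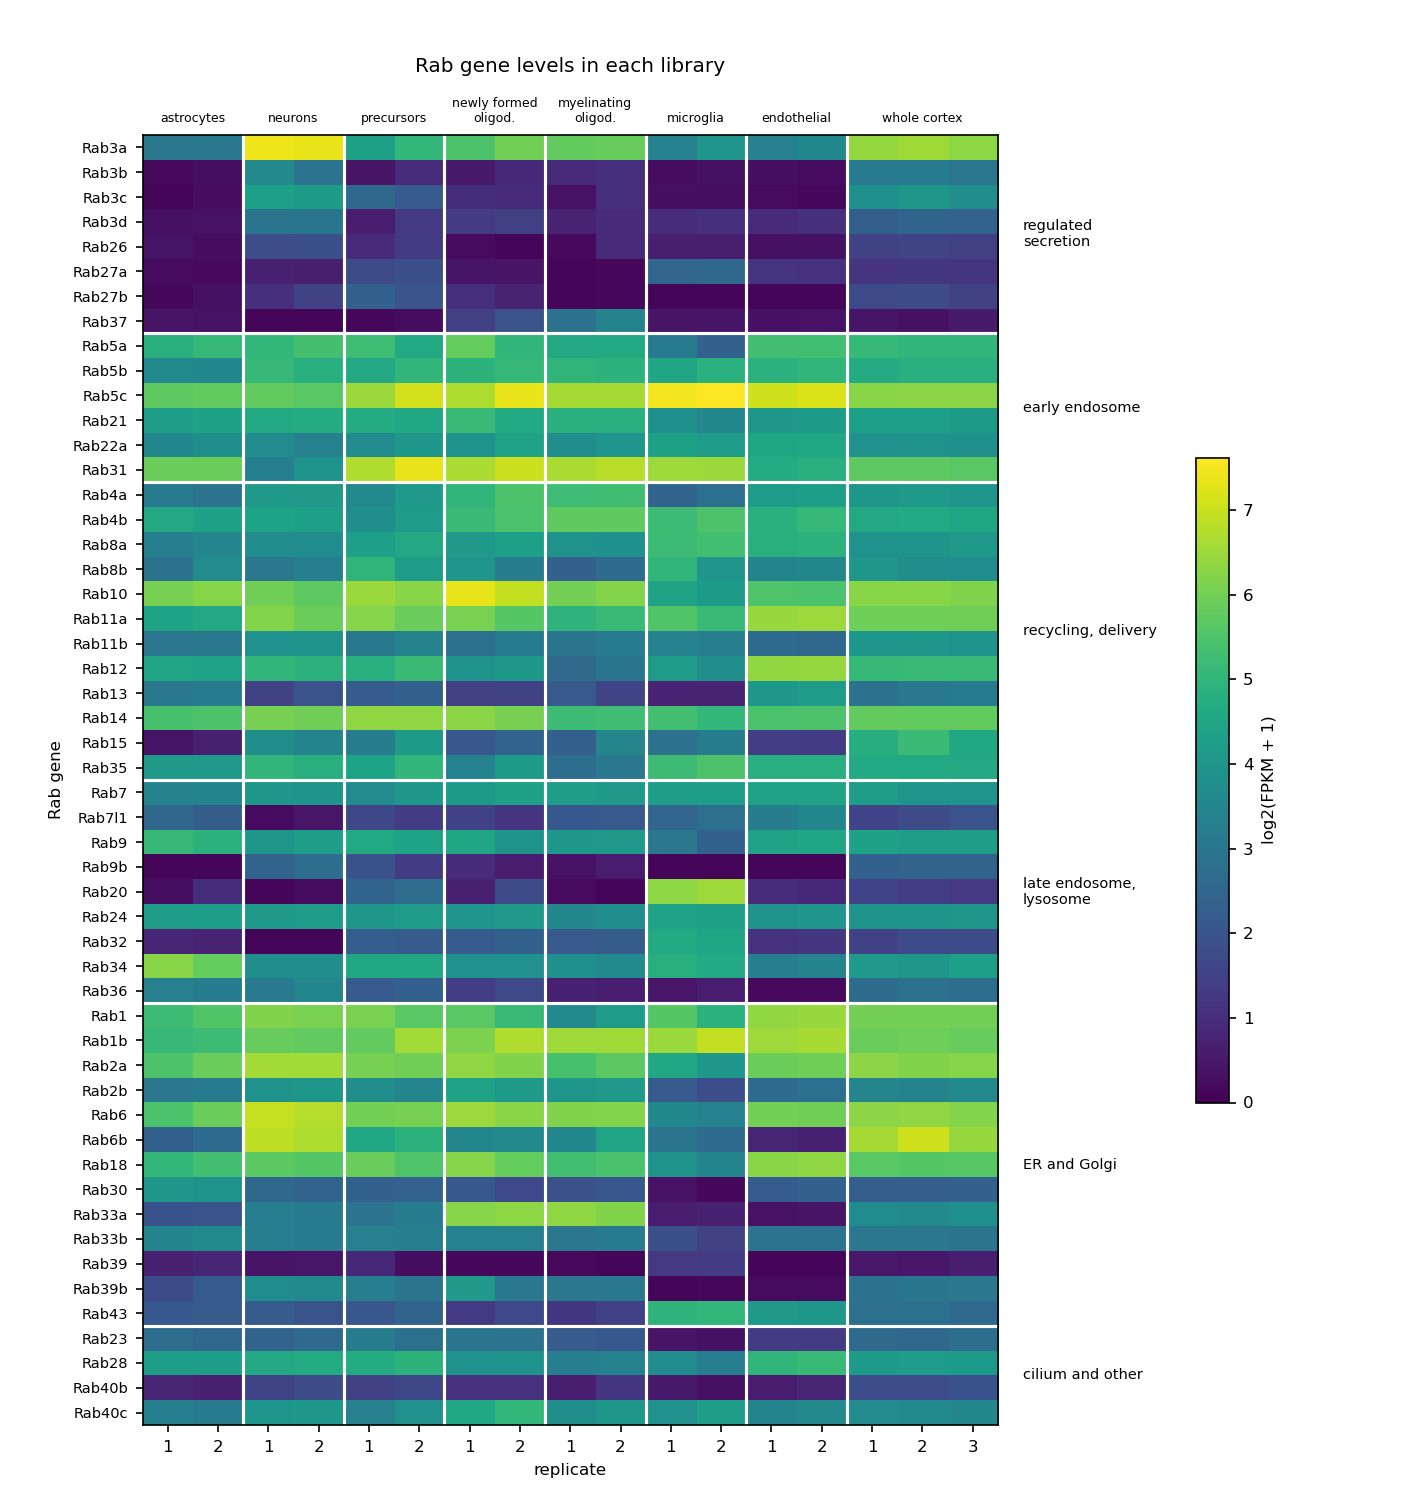
Levels of the 52 Rab genes that passed the filter on low values, as log2(FPKM + 1), in each of the 17 libraries (columns, numbered by replicate within a group) and ordered by role (rows). Rab3a and Rab6b are bright in neurons and whole cortex, Rab33a in the newly formed and myelinating oligodendrocytes, and Rab20 in microglia.

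Differences were tested on log2(FPKM + 1) with limma over all genes, and all log2 differences below are on that scale, which understates the change of low genes. A gene entered the tests with at least 1 FPKM in at least 2 libraries. This left 52 members, and Rab17, Rab19, Rab25, Rab38 and Rab44 stayed below it. The highest value of these 5 genes in any library was 0.623 FPKM, for Rab38 in a precursor library. Rab17, an early endosome gene of epithelia, reached 0.543 and 0.518 FPKM in microglia and no more than 0.117 FPKM elsewhere.

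Almost every member that was tested differed somewhere between the purified types, as almost every gene did. A moderated F test with an adjusted p under 0.05 and a range of group means of at least 1 on the log2 scale called 50 of 52 members, or 96.2%, against 92.7% of all 14011 genes. The median range was 2.47 over the members and 2.24 over all genes. Rab7, the switch that carries late endosomes to lysosomes, and Rab24, linked to autophagy, missed the range, at 0.98 and 0.73. The adjusted p alone was under 0.05 for all 52 members tested and for 98.6% of all genes. Rab7 lay between 9.57 and 20.1 FPKM in the 14 purified libraries, and Rab24 between 10.5 and 19.8 FPKM. Exons of both overlap other genes on the opposite strand, Gm5577 for Rab7 and Prelid1 for Rab24.

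To be called higher in a type, a gene had to exceed each of the other 6 purified types at an adjusted p under 0.05, and the nearest of them by at least 1 on the log2 scale. By this rule 12 members were higher in a single type, 23.1% of those tested, against 25.3% of all genes. They were 5 genes in neurons, 2 each in astrocytes, microglia and endothelial cells, and 1 in the myelinating oligodendrocytes. In bulk libraries, fewer cells of a type and less RNA per cell cannot be told apart.

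**Figure D2:**
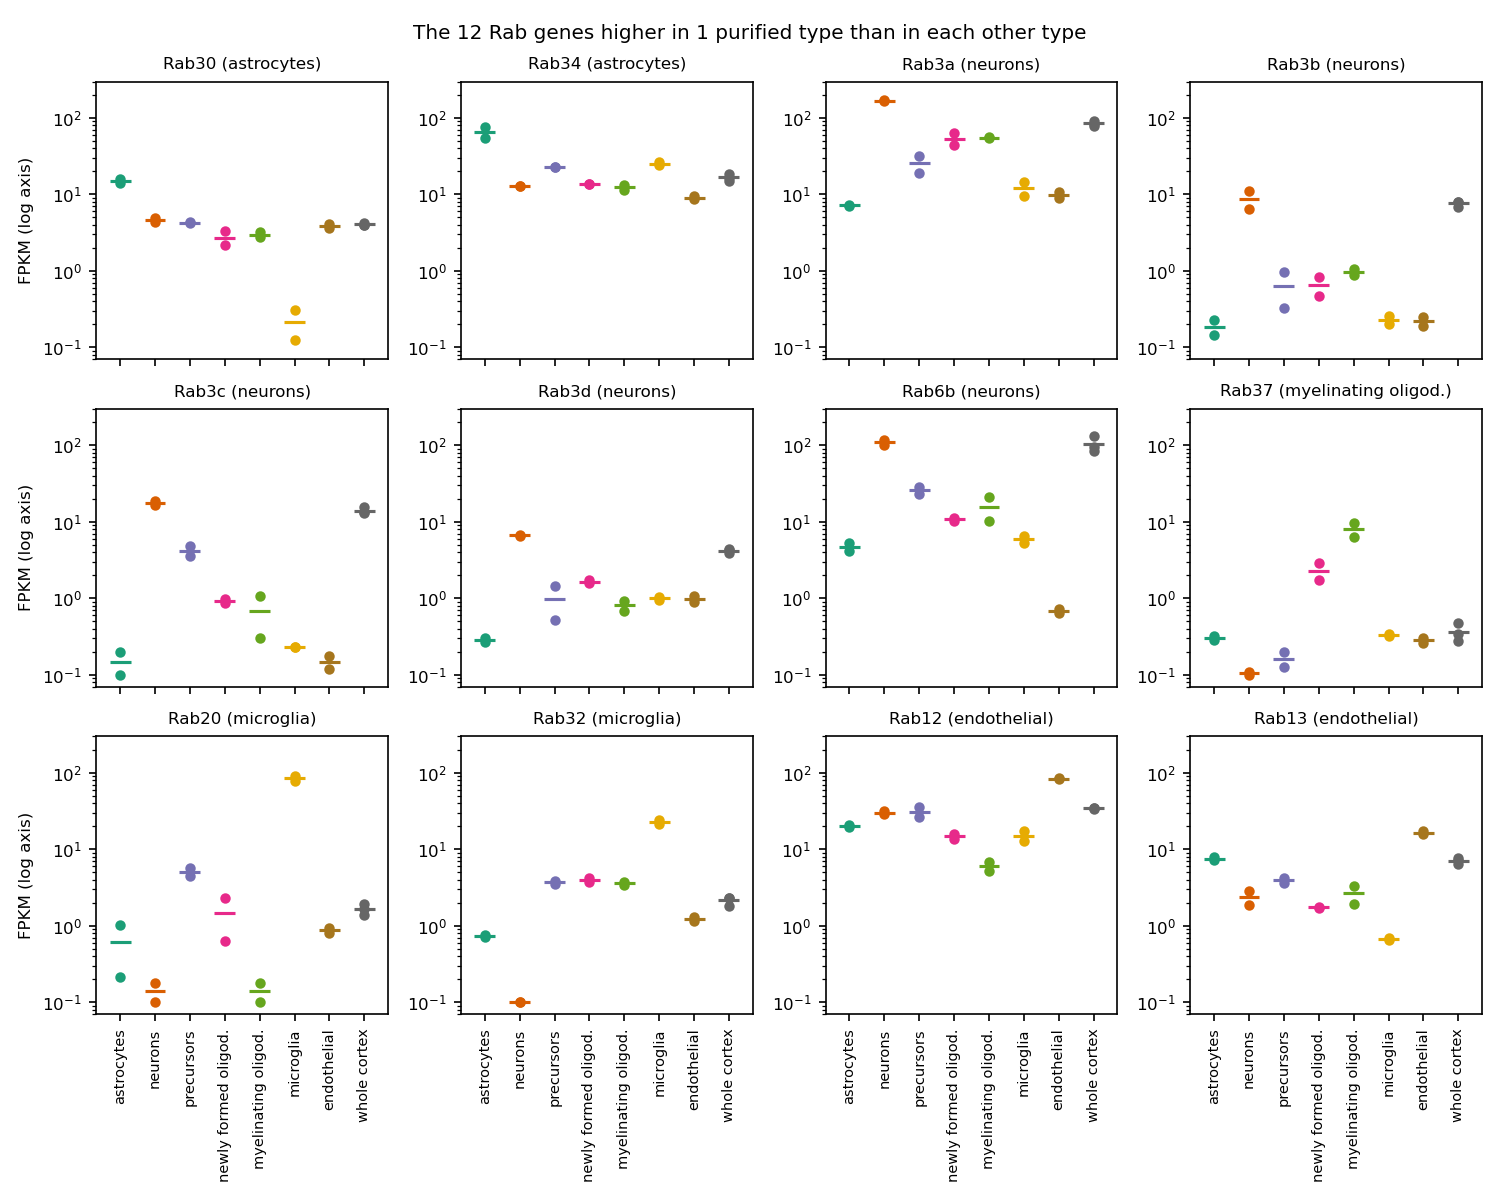
FPKM (log axis) in every library for the 12 Rab genes called higher in a single purified type, with a panel for each gene and the type named in its title. Points are libraries, horizontal lines are group means, and in each panel both points of the named type lie above all other purified libraries.

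Regulated secretion genes differed in where they were highest, with Rab27a, Rab27b and Rab37 highest outside neurons by mean. The proteins of the 4 Rab3 genes act on secretory and synaptic vesicles before fusion. All 4 were higher in neurons than in every other purified type. Rab6b, the brain form of the Golgi switch Rab6, was the fifth gene called there. These 5 were 9.62% of the members tested, against 5.7% of all genes called in neurons.

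Rab3a, which marks synaptic vesicles, stood at 170.1 and 165 FPKM in the neuron libraries. It was also well above the floor in the other purified types. Myelinating cells held 54.5 and 56.4 FPKM, newly formed cells 44.0 and 62.8, and precursors 19.2 and 32.1. Astrocytes, microglia and endothelial cells held 7.12 to 14.7 FPKM. The log2 difference between neurons and myelinating cells, the nearest type, was 1.58 (SE 0.24, adjusted p = 0.00016). Exons of Rab3a overlap those of Mpv17l2 on the opposite strand in the GENCODE annotation, and the library kit does not mark strand, so their reads cannot be told apart there.

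Rab3b, Rab3c and Rab3d reached lower levels than Rab3a in neurons. Rab3c measured 18.6 and 16.7 FPKM in neurons, 4.78 and 3.54 in precursors and at most 1.09 in the other purified libraries. Neurons exceeded precursors by 1.86 on the log2 scale for this gene (SE 0.20, adjusted p = 4.38e-06). Rab3b was found at 11.0 and 6.47 FPKM in neurons and at no more than 1.06 FPKM in any other purified library. Neurons exceeded the nearest type, myelinating cells, by 2.27 on the log2 scale (SE 0.21, adjusted p = 1.13e-06), and its exons overlap those of 8030443G20Rik on the opposite strand. Rab3d, known from secretory granules of exocrine and immune cells, gave 6.59 and 6.74 FPKM in neurons and 0.268 to 1.73 FPKM in the other types. The difference from newly formed oligodendrocytes, the nearest, was 1.53 (SE 0.18, adjusted p = 1.1e-05).

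Rab26, Rab27a and Rab27b stayed under 5 FPKM in every library. Rab27a and Rab27b serve melanosomes, lytic granules and other lysosome-related granules. Rab27a was highest in microglia, at 4.65 and 4.87 FPKM, followed by precursors at 2.41 and 2.66, and its difference of 0.71 fell short of the limit of 1. Rab27b lay at the 0.1 FPKM floor in every microglia and endothelial library and was highest in precursors, at 4.21 and 3.03 FPKM. Microglial marker sums in the precursor libraries were 3.24% to 7.597% of their level in microglia, and their part in the Rab27a level of precursors was not tested. Rab26, tied to secretory granules and to the turnover of synaptic vesicles, was highest in neurons at 2.50 and 2.62 FPKM. Its exons overlap those of Traf7 on the same strand.

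Rab37, a switch of secretory granules, was the only member called higher in an oligodendrocyte stage. It measured 6.32 and 9.58 FPKM in myelinating cells, 1.71 and 2.88 in newly formed cells and at most 0.343 FPKM in the other purified libraries. The log2 difference between both stages was 1.44 (SE 0.17, adjusted p = 0.000236), with 0.699% of all genes called in myelinating cells. Whole cortex held 0.279 to 0.474 FPKM. No member was called higher in precursors or in newly formed oligodendrocytes, where 1.49% and 0.457% of all genes were called.

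**Figure D3:**
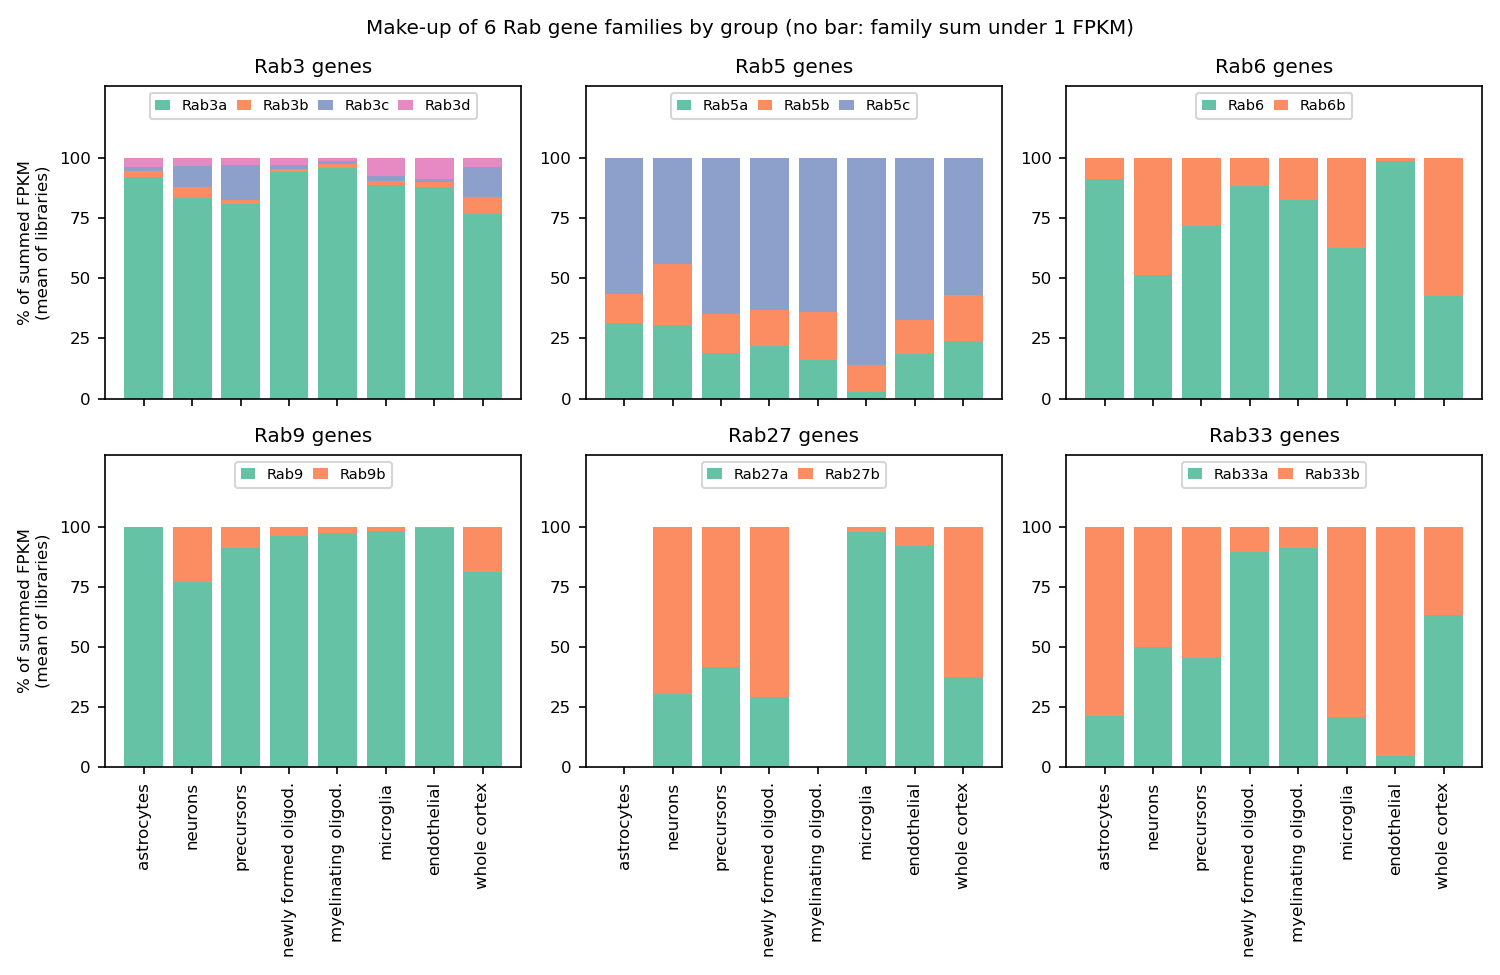
Share of each gene in the summed FPKM of 6 Rab families (stacked bars, mean of the libraries of a group, percent), with no bar where the family sum is under 1 FPKM. Rab3a leads its family in every group, Rab5a nearly vanishes from the Rab5 sum in microglia, and Rab33a holds 89.3% and 90.9% of the Rab33 sum in newly formed and myelinating oligodendrocytes.

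The early endosome genes were expressed in every type but in different proportions. Rab5 proteins drive the fusion of early endosomes. Rab5c had the highest mean of the group, at 180.0 and 196 FPKM in microglia, 135 and 148 in endothelial cells and 49.8 to 54.0 FPKM in neurons and astrocytes. Rab5a went the other way, with 7.93 and 4.15 FPKM in microglia and 23.4 to 55.2 FPKM in the other purified libraries. It was lower in microglia than in every other type, by 1.86 on the log2 scale from the nearest (SE 0.29, adjusted p = 0.000492). Rab5a made up 2.8% of the Rab5 FPKM in microglia and 15.9% to 31.5% in the other purified types. Rab5b was lowest in astrocytes, at 11.4 and 10.9 FPKM against 21.6 to 33.6 elsewhere (log2 difference from microglia -1.08, SE 0.17, adjusted p = 0.00421), where 0.778% of all genes were lower. This call was lost under median-of-ratios scaling (-0.92) and a common sum of FPKM (-0.33), and without astrocyte replicate 1 or microglia replicate 2.

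Rab31, which works between the trans-Golgi and endosomes, was among the most abundant Rab genes of glia. It reached 105 and 163 FPKM in precursors, 98.7 to 128 in the later oligodendrocyte stages, 89.6 and 88.4 in microglia and 59.6 and 59.2 in astrocytes. Neurons held 8.76 and 13.8 FPKM and were lower than each other type, with a log2 difference of -1.16 from endothelial cells (SE 0.22, adjusted p = 0.00961) and 0.614% of all genes lower there. The call was lost without neuron replicate 1 or endothelial replicate 2, and under scaling to a common sum of FPKM. Rab21, a switch of integrin traffic, ranged from 10.4 to 34.8 FPKM over the purified libraries, and Rab22a, of early and recycling endosomes, from 9.03 to 22.3 FPKM. The range of Rab22a, 1.01 on the log2 scale, fell under the limit with a common sum of FPKM and without neuron replicate 2 or endothelial replicate 2.

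Among the recycling and delivery genes, both endothelial calls were found. Rab12, known for the sorting of the transferrin receptor to lysosomes, measured 82.3 and 85.0 FPKM in endothelial cells, 26.3 and 35.7 in precursors and 5.18 to 31.5 FPKM in the other purified libraries. The difference from precursors was 1.42 (SE 0.18, adjusted p = 2.26e-05), and 0.93 under scaling to a common sum of FPKM. Rab13, a switch of tight junction assembly in epithelia, gave 15.7 and 17.4 FPKM in endothelial cells, 7.30 and 7.83 in astrocytes and 0.661 to 4.18 FPKM in the others. Its difference from astrocytes was 1.03 (SE 0.20, adjusted p = 0.000993), close to the limit, and the call was lost under median-of-ratios scaling and a common sum of FPKM (0.59 at the lowest) and without astrocyte replicate 1 or endothelial replicate 2. In endothelial cells 6.29% of all genes were called.

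Rab12 was also 1 of 2 members lower in myelinating cells than in each other type, where 2.56% of all genes were lower. It stood at 5.18 and 6.83 FPKM there and at 13.7 and 15.9 FPKM one stage earlier, a log2 difference of -1.18 (SE 0.18, adjusted p = 0.00115). The other was Rab1, the switch of transport from the endoplasmic reticulum to the Golgi, with 11.6 and 17.5 FPKM in myelinating cells and 27.9 to 85.4 FPKM in the rest (nearest difference -1.3, SE 0.26, adjusted p = 0.00434). Its close relative Rab1b held 90.96 and 90.8 FPKM in the same myelinating libraries, so that Rab1 was 13.7% of the pair's FPKM there and 27.1% to 55.4% in the other purified types. Both calls were lost under median-of-ratios scaling and without microglia replicate 1. That of Rab1 was also lost without myelinating replicate 1, and that of Rab12 under a common sum of FPKM.

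Rab10, which moves cargo such as glucose transporters to the plasma membrane, was the highest member of its group. It measured 159 and 119 FPKM in newly formed oligodendrocytes, 42.9 to 87.3 FPKM in the other types and 20.1 and 16.9 FPKM in microglia. Rab11a, the switch of the slow recycling endosome, was highest in endothelial cells at 86.1 and 90.5 FPKM and lowest in astrocytes at 20.5 and 23.3. Its relative Rab11b spanned 4.88 to 14.2 FPKM over the purified libraries. Rab8a, which guides vesicles to the plasma membrane and cilium, was highest in microglia at 36.7 and 38.4 FPKM, and Rab35, of fast recycling, likewise at 36.2 and 43.9. Rab14, of the Golgi to endosome route, had the narrowest range of the group, 1.16 on the log2 scale and 0.77 under median-of-ratios scaling.

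Rab15, a recycling gene best known from neurons, was higher in whole cortex than in any purified library. It measured 25.9, 35.3 and 22.6 FPKM in whole cortex, 12.6 and 9.80 in neurons, 8.27 and 16.9 in precursors and 0.347 and 0.579 in astrocytes. No purified type therefore reached the level of the unsorted tissue for this gene.

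The late endosome, lysosome and phagosome genes held both microglial calls, Rab20 and Rab32, and an astrocyte call, Rab34. In microglia 7.03% of all genes were called, against 3.85% of the members tested. Rab20, known for phagosome maturation in macrophages, stood at 79.4 and 89.7 FPKM in microglia, 4.43 and 5.65 in precursors and 0.1 to 2.33 FPKM in the other purified libraries. The difference from precursors, the nearest type, was 3.83 (SE 0.28, adjusted p = 3.77e-08). None of the 4 microglial markers was at the floor in all precursor libraries, and the part of such RNA in their Rab20 level was not tested. Exons of Rab20 overlap those of E230013L22Rik on the opposite strand.

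Rab32 builds melanosomes and other lysosome-related organelles together with Rab38. It reached 24.4 and 21.6 FPKM in microglia, 3.41 to 4.18 FPKM in the 3 oligodendrocyte stages and lay at the floor in both neuron libraries. Microglia exceeded the newly formed oligodendrocytes by 2.28 (SE 0.14, adjusted p = 6.05e-09). Rab38 stayed at or below 0.623 FPKM throughout.

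Rab34, known for lysosome positioning and for the formation of primary cilia, was at 76.5 and 55.0 FPKM in astrocytes and the most abundant Rab gene of 1 of these libraries. Microglia followed at 26.3 and 24.3 FPKM and precursors at 22.5 and 22.7, with 8.67 to 13.5 FPKM in the other types. The difference from microglia was 1.33 (SE 0.16, adjusted p = 3.81e-05), with 3.66% of all genes called in astrocytes. Rab36, the closest relative of Rab34, shared the high astrocyte level (9.07 and 8.28 FPKM) but was as high in neurons (7.65 and 10.4), and fell to 0.147 and 0.149 FPKM in endothelial cells.

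Rab7l1, which recruits the kinase Lrrk2 to lysosomes and the Golgi, was highest in endothelial cells at 8.31 and 10.3 FPKM and lowest in neurons at 0.177 and 0.375 FPKM. Rab9, of the return route from late endosomes to the Golgi, was found in all types, from 32.6 and 29.0 FPKM in astrocytes to 7.10 and 4.19 in microglia. Rab9b was listed at the 0.1 FPKM floor in every astrocyte, microglia and endothelial library and reached 4.37 and 5.72 FPKM in neurons, where it made up 23.2% of the pair.

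Of the genes of the endoplasmic reticulum and Golgi, Rab30 was called in astrocytes and Rab6b in neurons. Rab30, a Golgi protein, measured 15.8 and 14.0 FPKM in astrocytes, 2.18 to 4.91 FPKM in the other types except microglia, and 0.307 and 0.125 FPKM in microglia. Its astrocyte level exceeded that of neurons by 1.5 (SE 0.17, adjusted p = 1.5e-05), and its microglial level was below newly formed oligodendrocytes by 1.60 (SE 0.17, adjusted p = 2.01e-05). It was thus called in 2 opposite directions in 2 types.

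Rab6b stood at 119 and 102 FPKM in neurons, 22.9 and 29.0 in precursors, 4.21 to 20.9 FPKM in the other glia and 0.735 and 0.640 FPKM in endothelial cells. The neuronal excess over precursors was 2.05 (SE 0.27, adjusted p = 4.19e-05). Endothelial cells were lower than each other type, by 1.76 from astrocytes (SE 0.27, adjusted p = 0.000832), with 1.72% of all genes lower there. Neuronal marker sums in the precursor libraries were 5.78% to 6.02% of their level in neurons.

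Rab33a, whose protein acts on vesicles of growing axons, had the sharpest oligodendrocyte pattern of the family and was called in no single type because 2 stages shared it. It measured 74.0 and 79.1 FPKM in newly formed and 80.7 and 70.6 FPKM in myelinating oligodendrocytes, 6.49 and 8.37 in precursors, 8.66 and 7.75 in neurons and at most 2.93 FPKM in the other types. Every library of both stages thus lay far above every other library, whole cortex included at 11.2 to 13.2 FPKM. Rab33b, which binds the autophagy protein Atg16l1, stayed within 1.85 to 11.4 FPKM in all purified libraries. Rab33a made up 89.3% and 90.9% of the pair's FPKM in the newly formed and the myelinating cells, 49.8% in neurons and 4.6% in endothelial cells.

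Rab43, of Golgi traffic, was shared by microglia at 29.8 and 31.9 FPKM and endothelial cells at 16.6 and 15.2 FPKM, against 1.38 to 4.47 FPKM in the other purified libraries. Rab39b, a gene whose loss impairs neurons, was at most 0.176 FPKM in microglia and endothelial cells and stood at 11.98 and 11.5 FPKM in neurons and 15.97 and 7.26 in newly formed oligodendrocytes. Its relative Rab39 had its highest values in microglia, at 1.43 and 1.5 FPKM.

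Lower calls were more frequent among the members than among all genes, and most were in microglia. By the mirrored rule 13 members were lower in a single type, 25% of those tested, against 8.91% of all genes. A lower call needs expression in each of the other 6 types. Members and all genes were not matched for level, so their shares of lower calls are not compared on equal terms. Microglia held 8 of them, namely Rab2a, Rab5a, Rab6, Rab9, Rab10, Rab18, Rab30 and Rab33b, or 15.4% of those tested, with 3.23% of all genes lower there. No member was lower in precursors or newly formed oligodendrocytes, where 0.00714% and 0% of all genes were. The total was 8 under median-of-ratios scaling, which left 6 in microglia without Rab10 and Rab33b. Across all genes the median log2 difference of microglia from the mean of the other types was -0.44 as reported and -0.30 under that scaling. When all libraries were set to the same FPKM sum, which is highest in microglia, 12 members were lower in a type and these 8 were among them.

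Rab6, the switch of retrograde transport at the Golgi, was at 10.7 and 9.29 FPKM in microglia and 43.2 to 122 FPKM in the other purified libraries. The difference from astrocytes, the nearest, was -2.23 (SE 0.16, adjusted p = 7.86e-07), and exons of Rab6 overlap those of Mrpl48 on the opposite strand. Rab18, found on lipid droplets and the endoplasmic reticulum, measured 14.0 and 9.76 FPKM in microglia against 32.1 to 81.0 FPKM elsewhere (-1.52, SE 0.19, adjusted p = 0.000105). Rab2a, which acts between the Golgi and the endoplasmic reticulum, gave 22.9 and 15.7 FPKM against 41.7 to 93.2 FPKM (-1.24, SE 0.18, adjusted p = 0.000387). Rab2b, lowest in microglia at 3.43 and 2.58 FPKM and highest in newly formed oligodendrocytes at 19.8 and 16.2 FPKM, passed the F test across types and was called in no single type. Its exons overlap those of Tox4 on the opposite strand, so their reads cannot be told apart there.

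The other members low in microglia had nearest differences of -1.21 for Rab10 (SE 0.17), -1.40 for Rab9 (SE 0.21) and -1.20 for Rab33b (SE 0.15), at adjusted p of 0.000242, 0.000462 and 0.000112. The call of Rab2a was lost without microglia replicate 2, at -0.98. Not all basic transport genes were low in microglia, since Rab1b stood at 87.3 and 119.9 FPKM, the highest of the types by mean, and Rab5c and Rab8a were also highest there.

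Rab6 also differed in which isoform was used. RefSeq isoforms NM_024287 and NM_001163663 of Rab6 differ in exon 4 of 8, where each uses a version of 106 coding bases. The pair is shown because it is the measured difference between the isoforms, with the 30 differing bases in capitals (76 of 106 are identical, 71.7%). The gene lies on chromosome 7.
Rab6 NM_024287 exon 4: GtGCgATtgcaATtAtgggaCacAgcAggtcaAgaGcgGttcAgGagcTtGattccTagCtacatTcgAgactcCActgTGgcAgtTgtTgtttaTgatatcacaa
Rab6 NM_001163663 exon 4: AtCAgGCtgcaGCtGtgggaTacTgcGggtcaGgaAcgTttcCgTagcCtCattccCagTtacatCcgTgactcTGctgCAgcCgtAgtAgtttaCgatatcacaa

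Neurons used almost only the first of these exons. NM_001163663 measured 2.78 and 2.27 FPKM in neurons beside 119 and 107 FPKM of NM_024287, a share of 2.18% ± 0.14 (SD, n = 2). Its share was 19.0% ± 4.8 in astrocytes, 28.5% ± 0.78 in endothelial cells, 31.3% ± 1.1 in microglia and 34.6% ± 1.5 in precursors. It then made up most of the gene in the later oligodendrocyte stages, at 59.4% ± 2.4 in newly formed and 65.4% ± 3.2 in myelinating cells. Whole cortex lay at 18.0% ± 0.50 (SD, n = 3).

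Each type was compared with the mean of the other 6 by limma's diffSplice test of isoforms, and a call also needed shares at least 20 points apart. The share of NM_024287 in Rab6 was 37.5 points higher in neurons, with an adjusted p of 4.73e-14. The same share fell short of the other types' mean, with a difference of -29.2 points in newly formed cells (adjusted p = 2.98e-08) and -36.2 points in myelinating cells (adjusted p = 1.39e-09). Among the 6 members with 2 isoforms that could be tested, 4 were called, or 66.7%, against 62.4% of the 2273 genes tested.

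**Figure D4:**
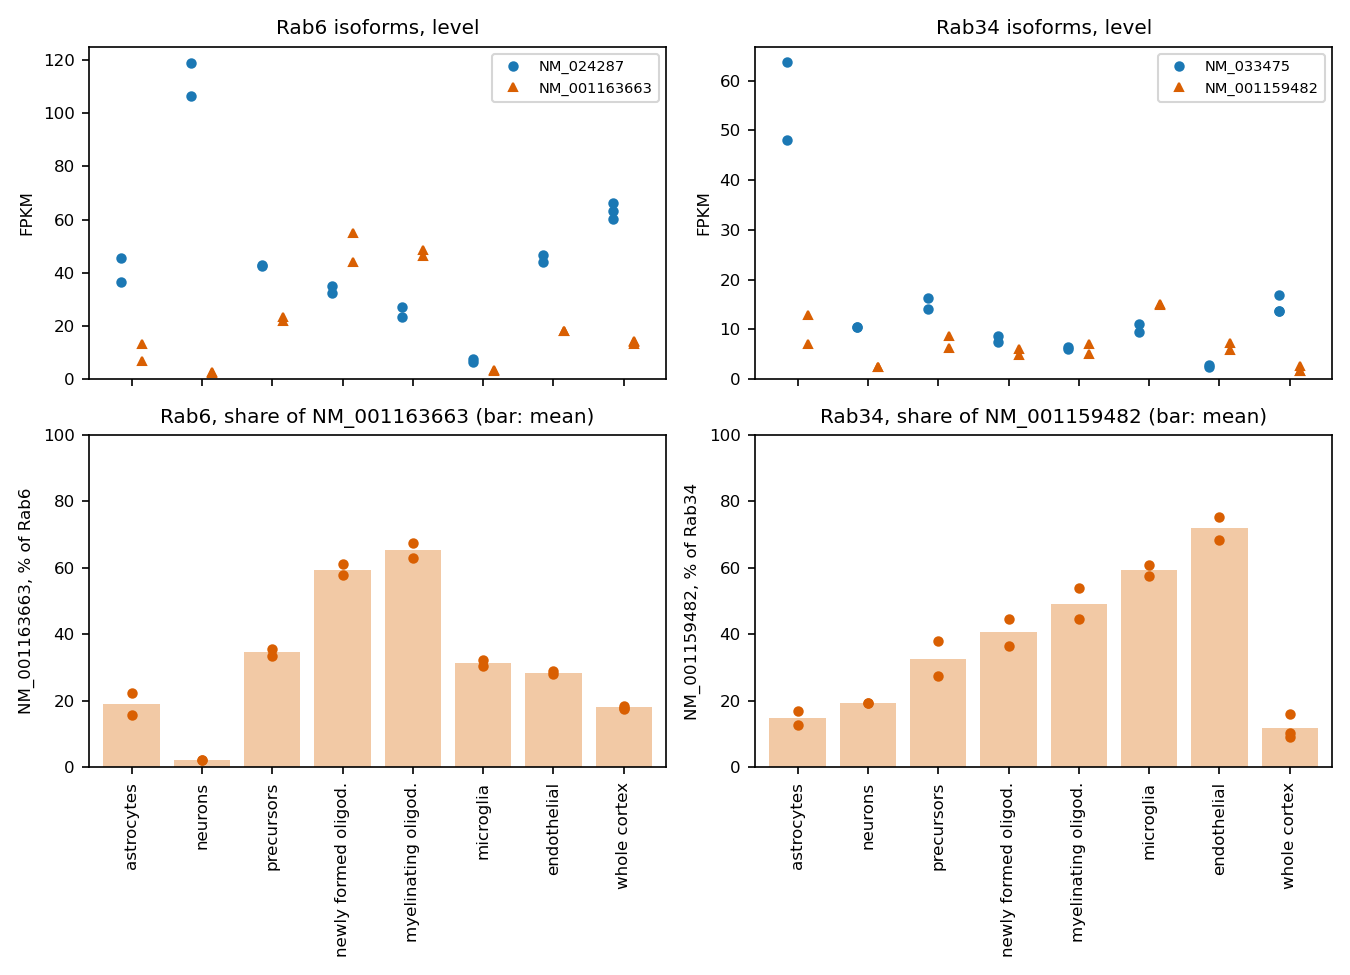
Isoforms of Rab6 (left) and Rab34 (right). Upper panels show FPKM of each isoform in every library, and lower panels the share of NM_001163663 or NM_001159482 in the gene (points, libraries, and bars, group means, in percent). The Rab6 share is near 2% in neurons and above 57% in every library of the later oligodendrocyte stages, while the Rab34 share is below 17% in astrocytes and above 68% in endothelial cells.

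Rab34 switched between isoforms that begin at different places. NM_001159482 has 11 exons and NM_033475 has 10, of which 9 are shared together with the start codon, and their starts in the GENCODE annotation are 349 bases apart. The 150 bases before each RefSeq start are shown because the estimated shares of these isoforms differed between types, with CG pairs in capitals. Use of the starts themselves was not measured. Both are on the plus strand of chromosome 11 in GRCm38.p6, from the RefSeq promoter table, whose starts differ from those of GENCODE by 3 and 31 bases. The first window is chr11:78188277-78188426 and the second chr11:78188598-78188747.
Rab34 NM_001159482: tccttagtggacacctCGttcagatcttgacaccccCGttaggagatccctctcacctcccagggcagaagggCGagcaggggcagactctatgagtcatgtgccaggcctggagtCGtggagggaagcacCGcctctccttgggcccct
Rab34 NM_033475: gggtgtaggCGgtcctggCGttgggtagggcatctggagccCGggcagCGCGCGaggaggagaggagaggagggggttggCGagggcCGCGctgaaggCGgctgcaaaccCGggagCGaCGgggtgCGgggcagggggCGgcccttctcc

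The first window holds 5 CG pairs and the second 15. Over the 32851 promoters of the table the median of the same 150-base window is 4, and 45.7% hold at least 5 and 15.3% at least 15. The excess of Rab34 in astrocytes lay in NM_033475, at 63.7 and 48.0 FPKM against 2.36 to 16.4 FPKM in the other purified libraries. NM_001159482 was highest in microglia, at 15.2 and 14.8 FPKM. Its share of the gene was 14.8% ± 2.9 in astrocytes, 19.2% ± 0.029 in neurons, 59.3% ± 2.4 in microglia and 71.9% ± 4.8 in endothelial cells (SD, n = 2). Relative to the mean of the other types, the share of NM_033475 was 30.7 points higher in astrocytes (adjusted p = 1.69e-07) and 25.5 points higher in neurons (adjusted p = 0.000113). It differed by -35.9 points in endothelial cells (adjusted p = 8.03e-07) and by -21.2 points in microglia (adjusted p = 0.000222).

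The other isoform calls, of Rab23 in microglia and Rab37 in neurons, rest on values at or near the floor. Rab23, a negative regulator of Hedgehog signalling at the cilium, was at 0.318 and 0.267 FPKM in microglia, and both Rab37 isoforms lay at 0.1 to 0.108 FPKM in neurons. Without microglia replicate 2, 2 genes were called, Rab6 and Rab34.

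The cilium and other genes were mid-range to low. Rab28, a ciliary gene of photoreceptors, was the highest, from 8.58 FPKM in a myelinating library to 34.1 FPKM in an endothelial one. Rab23 was 3.25 to 8.18 FPKM in neurons, astrocytes and the oligodendrocyte stages, 1.54 and 1.58 in endothelial cells, and under 0.4 FPKM in microglia as above. Rab40b and Rab40c, adaptors of ubiquitin ligases, differed in level, with Rab40c at 8.04 to 32.2 FPKM and Rab40b at 0.261 to 2.34 FPKM in the purified libraries.

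From precursors to newly formed oligodendrocytes, 6 members rose and 7 fell. Those that rose were Rab3a, Rab4a, Rab4b, Rab33a, Rab37 and Rab40c, or 11.5% of the members tested against 5.25% of all genes. Those that fell were Rab3c, Rab6b, Rab12, Rab15, Rab20, Rab27a and Rab27b, or 13.5% against 18.4% of all genes. The median log2 difference was -0.18 over the members and -0.35 over all genes. Scaling to a common sum of FPKM gave 5 rises and 11 falls.

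Rab33a had the largest change, from 6.49 and 8.37 FPKM to 74.0 and 79.1 FPKM, a log2 difference of 3.21 (SE 0.15, adjusted p = 2.1e-09). Rab4a and Rab4b, switches of fast recycling from early endosomes, rose together. Rab4a went from 11.2 and 15.9 FPKM to 30.5 and 44.4 FPKM (1.40, SE 0.20, adjusted p = 4.91e-05). Rab4b went from 12.9 and 17.5 FPKM to 34.2 and 43.4 FPKM (1.3, SE 0.18, adjusted p = 4.24e-05). For both genes all libraries of both later stages lay above all precursor libraries. Rab37 rose by 1.48 (SE 0.17, adjusted p = 7.93e-06), Rab40c by 1.22 (SE 0.21, adjusted p = 0.000239) and Rab3a by 1.05 (SE 0.24, adjusted p = 0.00246). The calls of Rab40c and Rab3a were lost without precursor replicate 1 or newly formed replicate 2, and that of Rab3a also under a common sum of FPKM.

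Several of the genes that fell are high in another cell type. The neuronal genes Rab3c and Rab6b fell by 1.41 (SE 0.20, adjusted p = 4.83e-05) and 1.19 (SE 0.27, adjusted p = 0.00241), and Rab15, whose highest purified mean was in the precursors themselves, fell by 1.43 (SE 0.35, adjusted p = 0.00417). Sums of the 4 neuronal markers, none at the floor in all libraries of either stage, were 57.3 to 59.6 FPKM in precursors and 14.6 to 15.1 FPKM in newly formed cells. Rab20 fell by 1.36 (SE 0.28, adjusted p = 0.00109) and Rab27a by 1.40 (SE 0.10, adjusted p = 7.21e-08), beside microglial marker sums of 128 to 301 FPKM in precursors and 12.9 to 13.3 FPKM in newly formed cells. The endothelial gene Rab12 fell by 1.01 (SE 0.18, adjusted p = 0.000401). Endothelial marker sums were 4.37 to 6.37 FPKM in precursors, only 0.112% to 0.163% of their level in endothelial cells. In newly formed cells they were 0.406 to 0.588 FPKM, and 1 of the 3 endothelial markers was at the floor. The part of RNA from other cells in these falls was not tested. Rab27b fell by 1.32 (SE 0.17, adjusted p = 1.87e-05) from the precursors, its highest purified type by mean. The calls of Rab12 (without precursor replicate 2 or newly formed replicate 1), Rab15 (without precursor replicate 2) and Rab20 (without newly formed replicate 1) were lost when a library was left out, and those of Rab6b and Rab12 under median-of-ratios scaling.

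**Figure D5:**
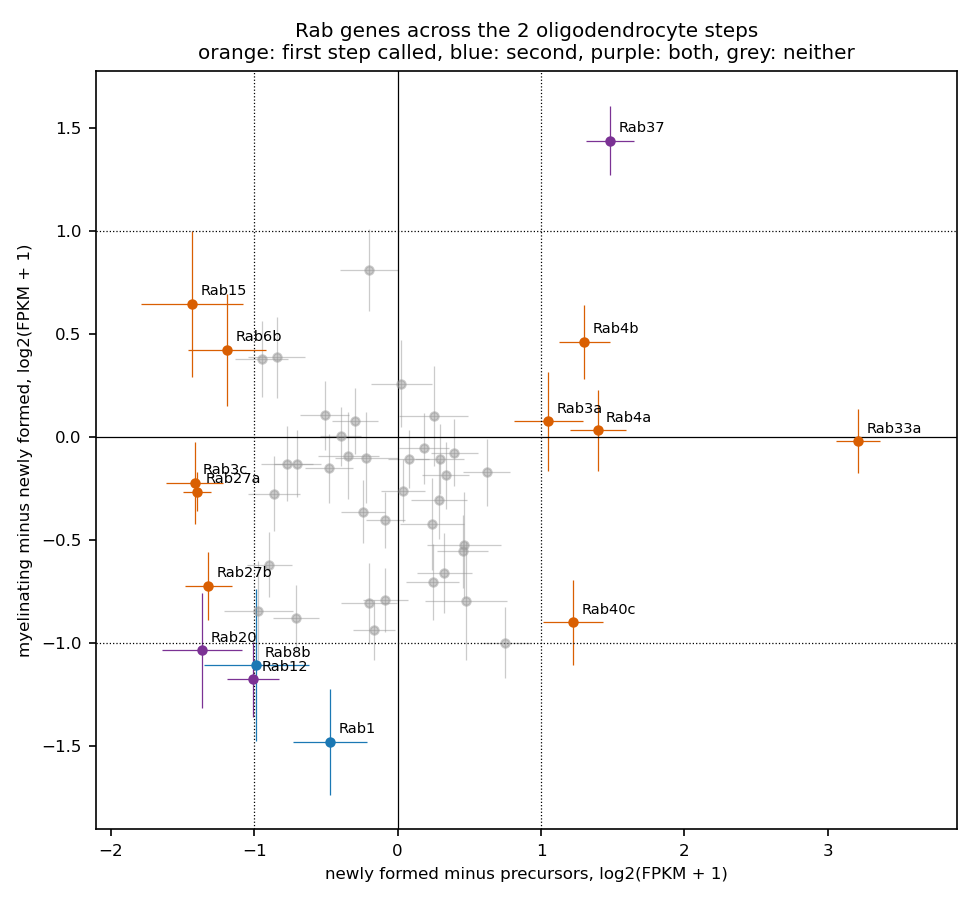
Log2 differences of the 52 tested Rab genes between precursors and newly formed oligodendrocytes (x axis) and between newly formed and myelinating oligodendrocytes (y axis), on log2(FPKM + 1), with standard errors as bars. Called genes are coloured and named, dotted lines mark differences of 1 in either direction, and Rab33a lies far to the right at 3.21 with a second step near 0.

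From newly formed to myelinating oligodendrocytes, Rab37 rose and Rab1, Rab8b, Rab12 and Rab20 fell. This comparison and the previous one share the newly formed libraries. The fall covered 7.69% of the members tested against 19.9% of all genes, and the rise 1.92% against 2.13%. This split depended on the scaling, since median-of-ratios scaling moved the median of all genes from -0.38 to -0.02 and gave 4 rises (Rab4b, Rab7l1, Rab15 and Rab37) and no falls, while a common sum of FPKM gave 1 rise and 10 falls. Rab37 was the call held under each scaling, at 1.44 (SE 0.17, adjusted p = 1.67e-05). Rab1 fell by 1.48 (SE 0.26, adjusted p = 0.000391) and Rab12 by 1.18 (SE 0.18, adjusted p = 0.000163). Rab8b, a relative of Rab8a, went from 14.95 and 8.39 FPKM to 4.07 and 5.35 FPKM (-1.11, SE 0.37, adjusted p = 0.0233), and this call was lost with no filter and without newly formed replicate 1 or myelinating replicate 1. Rab20 lay at or below 2.33 FPKM in all 4 libraries (-1.04, SE 0.28, adjusted p = 0.00762), and its call was lost without newly formed replicate 2 or myelinating replicate 2. Rab33a did not pass here, at 74.0 and 79.1 FPKM before and 80.7 and 70.6 FPKM after.

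In whole cortex, 8 members were called above the mean of the 7 purified types and none was called below it. They were 15.4% of those tested, against 17.3% of all genes higher and 0.785% lower (18.1% in either direction). The mean was taken over log2 levels, which lies at or below the log2 of the mean level of the types. Higher calls are thus favoured by the comparison itself. The median difference was 0.21 over the members and 0.31 over all genes, the latter 0.17 under median-of-ratios scaling. The genes were the 4 Rab3 genes, Rab6b, Rab9b, Rab15 and Rab36, of which the first 6 and Rab36 had their highest purified mean in neurons. Rab6b differed by 3.12 (SE 0.17, adjusted p = 3.24e-09), at 96.2, 134 and 85.8 FPKM in whole cortex. Rab3c differed by 2.62 (SE 0.13, adjusted p = 8.85e-10), Rab15 by 2.34 (SE 0.23, adjusted p = 6.33e-07) and Rab3b by 2.19 (SE 0.14, adjusted p = 8.11e-09). The remaining 4 differed by 1.09 to 1.59, with that of Rab36 at 0.96 under median-of-ratios scaling. Sums of neuronal markers in whole cortex were 86.5% to 86.8% of their level in neurons, and the part of neuronal RNA in these differences was not tested.

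The genes whose proteins load, unload and read the Rab switches varied in RNA level to about the same degree as the members. Of 110 listed genes found in the files, 104 passed the filter and 97 were called by the F test (93.3%, against 92.7% of all genes), with a median range of 2.49. All 9 genes of GDP dissociation, escort and prenylation were called, as were 27 of 31 exchange factors, 24 of 24 GTPase activators and 37 of 40 effectors. In a single type 23 regulators were higher, 22.1% against 25.3% of all genes, and 12 of them were in microglia (11.5% against 7.03%).

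Among the exchange factors, Rab3il1 was at 100.1 and 142 FPKM in microglia and 0.726 to 6.76 FPKM in the other purified libraries (4.02, SE 0.22, adjusted p = 2.13e-09). Its protein activates Rab8. Hps4, part of the complex that activates Rab32 and Rab38, stood at 60.6 and 56.1 FPKM in microglia and 1.99 to 6.30 FPKM in the others (3.04, SE 0.14, adjusted p = 3.54e-10). It was thus high in the same type as its substrate Rab32. Rin3, an activator of Rab5 proteins and Rab31, measured 23.0 and 30.95 FPKM in microglia and 8.85 and 8.53 in endothelial cells (1.51, SE 0.17, adjusted p = 5.07e-06). Of the genes of its substrates, Rab5c was highest in microglia and Rab5a was lowest there. Rab5b was highest in newly formed oligodendrocytes and Rab31 in precursors. Dennd3, the activator of Rab12, was at 24.2 and 23.8 FPKM in endothelial cells and no more than 0.892 FPKM in the other purified libraries (3.73, SE 0.11, adjusted p = 1.1e-12). Endothelial cells were also the type called for Rab12. Whether exchange factors and their substrates match across types was not tested.

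Of the GTPase activators, Tbc1d10a, which acts on Rab27a and Rab35, reached 152 and 164 FPKM in microglia, 44.8 and 45.8 in astrocytes and 0.966 to 8.62 FPKM elsewhere (1.78, SE 0.25, adjusted p = 5.48e-05). Sgsm1 measured 19.0 and 29.0 FPKM in neurons and 6.79 and 8.73 in precursors (1.49, SE 0.22, adjusted p = 0.000116). Tbc1d9 and Rabgap1l were highest in neurons by mean without passing the single-type rule, and Rabgap1l was lowest in microglia, at 0.591 and 0.331 FPKM.

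Among the effectors, Rims3, a presynaptic active zone protein, was at 23.4 and 21.0 FPKM in neurons and at most 2.99 FPKM in other purified libraries (2.95, SE 0.28, adjusted p = 1.16e-06). Rilpl2, which binds Rab8 and Rab10 proteins after their phosphorylation by Lrrk2, measured 179.9 and 149 FPKM in microglia and 4.26 to 18.5 FPKM in the others (3.33, SE 0.22, adjusted p = 1.37e-08). Micall1, a scaffold of recycling endosomes that binds Rab8 and Rab35, was shared by the later oligodendrocyte stages, at 58.1 and 46.6 FPKM in newly formed and 80.5 and 80.9 FPKM in myelinating cells, against 2.42 to 11.8 FPKM in the other purified libraries. Rab11fip4, a partner of Rab11, was highest in neurons at 24.6 and 24.1 FPKM and lowest in endothelial cells at 0.143 and 0.133 FPKM.

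Praf2, a membrane protein related to the Rab acceptor Rabac1, had its lowest values in microglia at 4.59 and 5.88 FPKM and its highest mean in the myelinating cells at 37.8 and 36.7 FPKM. The escort proteins Chm and Chml, which present new Rab proteins for prenylation, were both low in myelinating cells and microglia, with Chml at 0.111 and 0.147 FPKM and Chm at 1.79 and 2.15 FPKM in the former.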

How the data were processed

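Levels are FPKM per gene symbol and per RefSeq isoform, as deposited by the authors, with a floor of 0.1. Per the labels' protocols, RNA was purified with miRNeasy, selected for polyA and made into paired-end TruSeq V2 libraries. The submitters' processing notes name Cufflinks 1.3.0, Bowtie 0.12.7, TopHat 1.3.3 and CASAVA, with mm9 as the build. How reads shared by close family members were divided is not given in the sources used here. Besides the overlaps named above, exons of Rab4b, Rab11a, Rab18, Rab27a and Rab43 overlap another gene on the same strand. Those of Rab5a, Rab10, Rab11b, Rab22a, Rab33b, Rab39b and Rab40c overlap a gene on the opposite strand. Depth per library is unknown.

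The gene members, role groups and regulator lists were chosen with earlier results of these data known. Groups were taken from the sample labels. All 17 libraries entered a cell-means model of 8 groups in limma 3.58.1 (R 4.3.3) on log2(FPKM + 1) with a trended prior variance, for 14011 genes with at least 1 FPKM in 2 libraries. Benjamini-Hochberg adjustment ran over all of these. A gene was called higher or lower in a type by its largest one-sided p-value against the other 6 types, while the steps and whole cortex used two-sided tests, each with a limit of 1 on the log2 scale. Isoforms were tested with diffSplice (Simes) in genes of at least 5 FPKM, adjusted over genes and types, and 1 isoform missing from whole cortex was left out. The code was tested on simulated data. All called members are named, as are the members with the highest mean of each role and up to 4 regulators of widest range per list, of which 1 is not reported here.

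Alternatives were each library left out, a replicate block, other isoform limits, library scaling by median of ratios or to a common FPKM sum, a pseudocount of 0.1, and a filter at 5 FPKM or none. Whether replicate numbers pair the samples was checked by correlating the replicate 1 minus replicate 2 differences between groups, without whole cortex replicate 3. The correlations fell short of the mark for pairing (over 0.1 in every pair of groups). No coordinates in mm9 are given. Sequences come from the RefSeq table and GENCODE M21 transcripts, both on GRCm38. Python 3.11.15, pandas 2.3.3, numpy 2.4.6 and matplotlib 3.10.9 made the tables and figures.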

Additional observations from a re-analysis of the deposited data

How the results depend on the processing

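Counts of called Rab genes kept within 1.5 times of those reported under no filter, a filter at 5 FPKM and the replicate block, in every comparison. With a pseudocount of 0.1 in place of 1, which gives low genes more weight, 1 gene (Rab27b) was higher in precursors in place of 0, 20 changed between precursors and newly formed cells in place of 13, 10 between newly formed and myelinating cells in place of 5, and 14 in whole cortex in place of 8. Median-of-ratios scaling gave 4 genes higher in microglia in place of 2 (adding Rab27a and Rab43), 1 higher in endothelial cells in place of 2, and 8 lower in a single type in place of 13. Scaling to a common sum of FPKM gave 0 higher in endothelial cells and 11 changed between newly formed and myelinating cells. The F test calls of Rab1b, Rab22a and Rab39 were lost under it. The cause of these differences was not tested.

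Leaving out single libraries, the endothelial count ranged from 1 to 2 (1 without astrocyte replicate 1 or endothelial replicate 2) and the precursor count from 0 to 1 (1 without neuron replicate 2 or precursor replicate 2). The second oligodendrocyte step ranged from 5 to 9 (9 without newly formed replicate 2) and isoform use from 2 to 5 (2 without microglia replicate 2). Neurons ranged from 5 to 6, lower calls from 11 to 14, the F test from 49 to 50, the first step from 12 to 14, whole cortex from 8 to 9 and regulators from 95 to 98. The counts for astrocytes (2), microglia (2), myelinating cells (1) and newly formed cells (0) stayed the same. No named result reversed its direction.

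The differences between replicates 1 and 2 had correlations of -0.25 to 0.73 over 28 pairs of groups, with a median of -0.00032. Of these, 7 were over 0.1, so the numbers were not treated as pairing the samples. A mark that asks for every pair cannot detect a batch shared by some groups only, and such a batch was not tested. The replicate block gave 13 and 5 changed genes at the 2 oligodendrocyte steps, 9 in whole cortex in place of 8, 13 lower in a single type and 4 for isoform use.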
